A study of Sus scrofa with 24 samples.

Results

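The 7 genes described here encode enzymes that build triglyceride from glycerol-3-phosphate: GPD1, GPAM, GPAT3, AGPAT2, LPIN1, DGAT1 and DGAT2. They were taken by gene symbol from a table of 12017 genes, and all 7 were found, with 11 of the 22154 listed transcripts. DGAT2 is the locus on chromosome 9. RNA was sequenced from a back muscle, the longissimus dorsi, of 24 F1 pigs from a cross of Duroc boars and Luchuan sows. By their labels, 12 pigs had high and 12 had low intramuscular fat (IMF), fat that is stored between and within the fibres. All animals of both groups had the same diet and farm and were slaughtered at 210 ± 6 days, and muscle was sampled 25 minutes after death. Litter and the fat content of each animal were not used here, and sex entered in 1 alternative fit alone, through the level of Y-linked genes. The question of the comparison is which transcripts differ between muscle that holds much and little fat.

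Triglyceride is made in a short chain of steps. GPD1 reduces a glycolysis intermediate to glycerol-3-phosphate, the backbone. A glycerol-3-phosphate acyltransferase adds the first fatty acid (GPAM at mitochondria, GPAT3 at the endoplasmic reticulum), and AGPAT2 adds the next, which gives phosphatidic acid. LPIN1 removes the phosphate to leave diacylglycerol. DGAT1 or DGAT2 adds the last fatty acid, and these 2 enzymes belong to unrelated protein families. In muscle, fibres and the fat cells between them both use the chain, while GPD1 also carries reducing equivalents toward mitochondria. AGPAT2 and DGAT2 are known as enzymes of fat tissue, and LPIN1 is the main phosphatidate phosphatase of skeletal muscle.

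Values are FPKM, fragments scaled to transcript length and library size, as the authors deposited them, added up over each gene's listed transcripts. Because FPKM is per length, levels of different genes can be compared, as far as the listed transcript lengths hold. These are 1480 bases for DGAT2, 5932 for AGPAT2 and 6365 for DGAT1. GPD1 was the most abundant of the 7 by far, at 256 ± 76.0 FPKM (SD over 24 animals), and exceeded LPIN1, next at 13.3 ± 4.74 FPKM, in 24 of 24 animals. DGAT2 followed at 10.8 ± 7.91 FPKM and AGPAT2 at 10.7 ± 2.83 FPKM, and the order of this pair was not the same in the groups: DGAT2 was the higher in 8 of 12 high IMF but in 2 of 12 low IMF animals. LPIN1 exceeded DGAT2 in 12 of 12 low IMF but in 4 of 12 high IMF animals. AGPAT2 exceeded the next gene, GPAT3, in 24 of 24 animals. GPAT3 at 1.93 ± 1.08, DGAT1 at 1.73 ± 0.367 and GPAM at 1.33 ± 0.693 FPKM were of like size: GPAT3 was above DGAT1 in 14 and DGAT1 above GPAM in 18 of 24 animals.

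**Figure D1:**
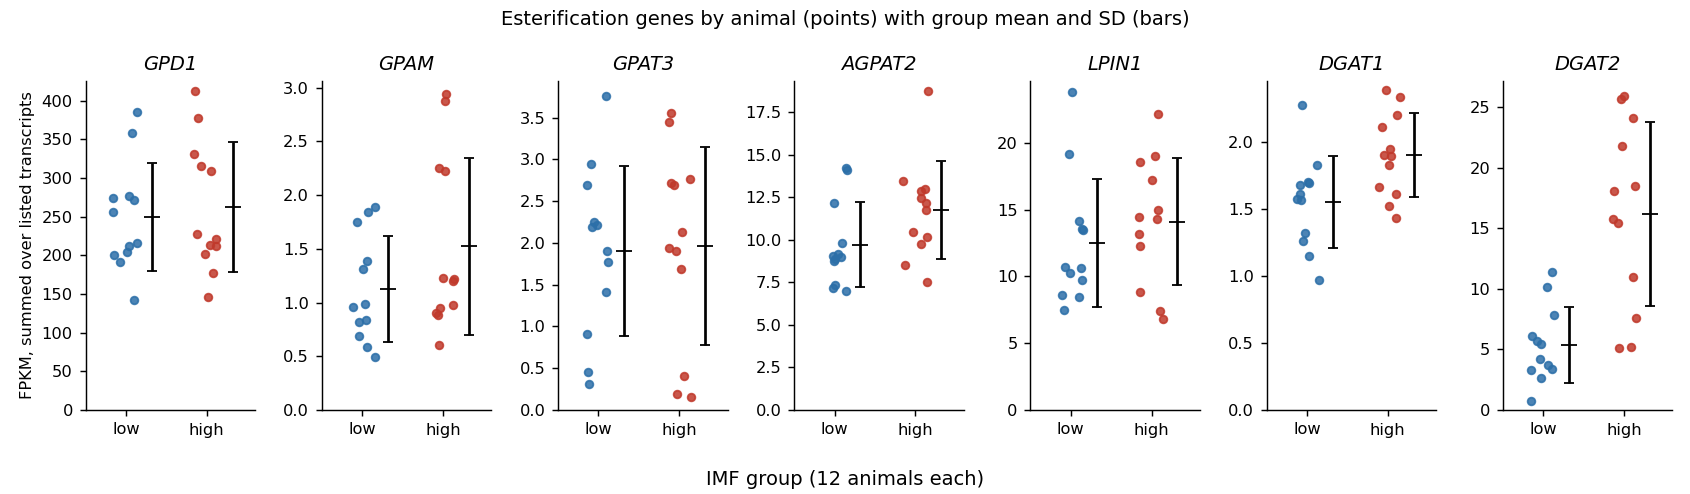
Each point is 1 animal, the y axes are FPKM added up over each gene's transcripts (a separate axis per gene, from 0), and bars are mean and SD of 12 animals. DGAT2 runs from 5.08 to 25.9 FPKM in high and from 0.697 to 11.4 FPKM in low IMF, while the 2 groups overlap over most of their range for the other genes.

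DGAT2 was the member with the largest difference. It ranged from 5.08 to 25.9 FPKM in high IMF animals, with a median of 16.9, and from 0.697 to 11.4 FPKM in low IMF animals, with a median of 4.81. Every one of the 12 high values exceeded the low IMF median and 8 exceeded the highest low IMF animal, while 6 low IMF animals lay below the lowest high IMF animal. The groups therefore overlapped, through high IMF animals 8, 9, 10 and 12 and low IMF animals 2, 4, 5, 9, 10 and 11. The ratio of group means was 3.01. On the log2(FPKM + 1) scale, on which all fold changes here are given and which understates those of low genes, the difference was 1.44 (SE 0.299, 95% interval 0.82 to 2.05). It did not pass the threshold of 0.05 in the limma fit over 11757 genes (adjusted p = 0.0693, unadjusted p = 5.78e-05).

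None of the 7 genes passed in that fit, which called 0.0425% of genes higher and 0.00851% lower in high IMF. DGAT2 and DGAT1 had an unadjusted p under 0.05, both higher, where 6.79% of all genes were higher and 0.893% lower at that level. Of the 7, 6 had a log2 fold change above 0, as had 73.4% of all genes, and their median was 0.19 against 0.077 for all genes. When libraries were rescaled by trimmed mean of M values (TMM), the median of all genes moved to -0.00086, 5 of the 7 were above 0 (49.8% of all genes), and DGAT2 alone had an unadjusted p under 0.05 (2.81% of all genes higher). DGAT2 then had a log2 fold change of 1.35 (limma adjusted p = 0.0853). Its call was gained with array weights (adjusted p = 0.0119) and without high IMF animals 9 (0.0228) or 10 (0.0334) or low IMF animals 4 (0.0440) or 10 (0.0239), each left out alone. Other settings moved it away from the threshold: the limma adjusted p was 0.107 with upper-quartile scaling, 0.115 with a pseudocount of 0.1, 0.132 with a Y-linked level as a term and 0.213 with 1 animal for each of the 3 pairs of animals that share their first 9 identifier digits (21 animals kept).

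**Figure D2:**
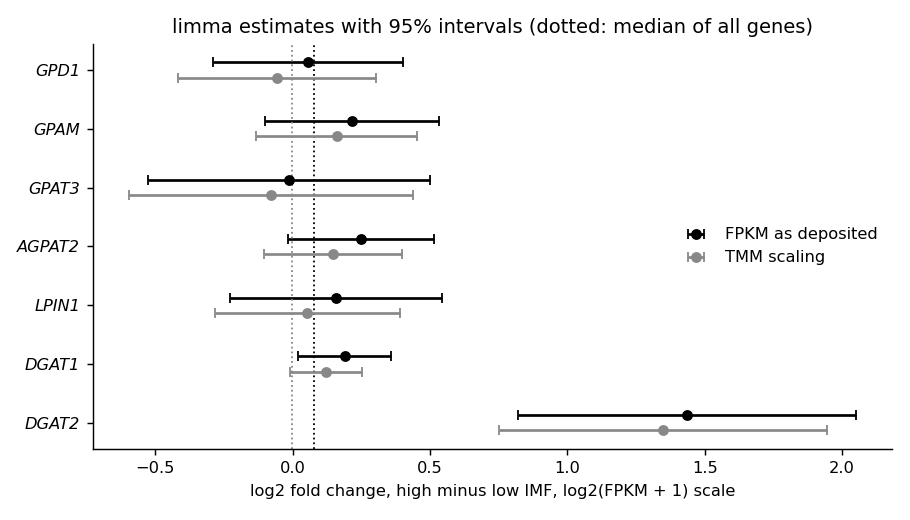
Points are limma log2 fold changes, high minus low IMF, on the log2(FPKM + 1) scale, with 95% intervals, for FPKM as deposited (black) and after TMM scaling (grey); dotted lines are the medians of all genes, 0.077 and -0.00086. DGAT2, at 1.44 and 1.35, lies to the right of the other 6 genes, and GPD1 moves from 0.056 to -0.057 with the scaling.

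DGAT1, the other enzyme of the last step, was far lower in FPKM and differed by little. It ranged from 1.43 to 2.38 FPKM (median 1.89) in high IMF and from 0.970 to 2.27 FPKM (median 1.59) in low IMF animals. The low IMF median was exceeded in 10 of 12 high IMF animals and the highest low IMF value in 2. The log2 fold change was 0.19 (SE 0.0825, 95% interval 0.020 to 0.36, limma adjusted p = 0.608). DGAT1 also varied least between animals of a group, with an SD of 16.4% of the mean in high and 22.1% in low IMF, against 46.9% and 58.2% for DGAT2.

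GPD1, the enzyme that supplies the backbone, did not follow DGAT2. It ranged from 146 to 412 FPKM (median 224) in high and from 142 to 385 FPKM (median 236) in low IMF animals, and 5 of the 12 high values exceeded the low IMF median. The log2 fold change was 0.056 (SE 0.169, 95% interval -0.29 to 0.40, limma adjusted p = 0.959), and it was -0.057 with TMM scaling.

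Of the members, GPAM and GPAT3 add the first fatty acid, and both genes were low in high and low IMF. GPAT4, an acyltransferase of the same step outside the members, was at 18.9 ± 8.66 against 18.5 ± 7.65 FPKM. GPAM ranged from 0.604 to 2.94 FPKM (median 1.21) in high and from 0.492 to 1.89 FPKM (median 0.974) in low IMF, with a log2 fold change of 0.22 (SE 0.154, 95% interval -0.10 to 0.53, limma adjusted p = 0.742). In GPAM, 4 high IMF animals (5, 7, 8 and 12) lay above the highest low IMF animal and the other 8 lay within the low IMF range. GPAT3 spanned a 25.1-fold range between animals, from 0.15 to 3.55 FPKM (median 2.03) in high and from 0.305 to 3.76 FPKM (median 2.04) in low IMF. Its log2 fold change was -0.013 (SE 0.249, 95% interval -0.53 to 0.50, limma adjusted p = 0.993), and the interval allows changes of either sign. The lowest GPAT3 values were in high IMF animals 1, 6 and 8 and low IMF animals 1 and 8, all below 0.5 FPKM, so low GPAT3 was not tied to either group.

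AGPAT2, which makes phosphatidic acid, ranged from 7.53 to 18.7 FPKM (median 11.9) in high and from 6.98 to 14.2 FPKM (median 9.01) in low IMF. In AGPAT2, 10 of the 12 high values exceeded the low IMF median, and of these high IMF animal 11 alone exceeded the highest low IMF animal. The log2 fold change was 0.25 (SE 0.129, 95% interval -0.017 to 0.52, limma adjusted p = 0.665). LPIN1 ranged from 6.79 to 22.1 FPKM (median 14.4) in high and from 7.49 to 23.8 FPKM (median 10.7) in low IMF, and 9 of the 12 high values exceeded the low IMF median. Its log2 fold change was 0.16 (SE 0.188, 95% interval -0.23 to 0.54, limma adjusted p = 0.853).

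Each pair of the 7 genes was also compared as a log2 ratio of (FPKM + 1) within an animal, 21 pairs in all. The ratio of DGAT2 differed between groups against each of the 6 other genes, and none of the 15 pairs without DGAT2 passed (adjusted p from 0.738 to 0.882, none with an unadjusted p under 0.05). These 6 ratios share the DGAT2 values and are not independent, and DGAT2 was known beforehand to have the largest difference. Relative to DGAT1, DGAT2 stood at a log2 ratio of 2.41 ± 0.792 in high and 1.16 ± 0.723 in low IMF (SD, 12 animals each). That difference of 1.25 had a permutation p = 0.00096, adjusted p = 0.00714 over the 21 pairs, with 11 of the 12 high values above the low IMF median. Relative to LPIN1, which precedes it in the chain, DGAT2 moved from -1.19 ± 0.634 in low to 0.093 ± 0.657 in high IMF. The difference of 1.28 had a permutation p = 9.0e-05, adjusted p = 0.00189, with each of the 12 high values above the low IMF median. Relative to GPD1, GPAM, GPAT3 and AGPAT2 the differences were 1.38 (adjusted permutation p = 0.00714), 1.22 (0.00714), 1.45 (0.00714) and 1.19 (0.0108). Without a pseudocount, where a ratio does not depend on library scaling, the 6 differences ran from 1.3 to 1.87 and all passed (permutation, adjusted p from 0.00189 to 0.0367).

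**Figure D3:**
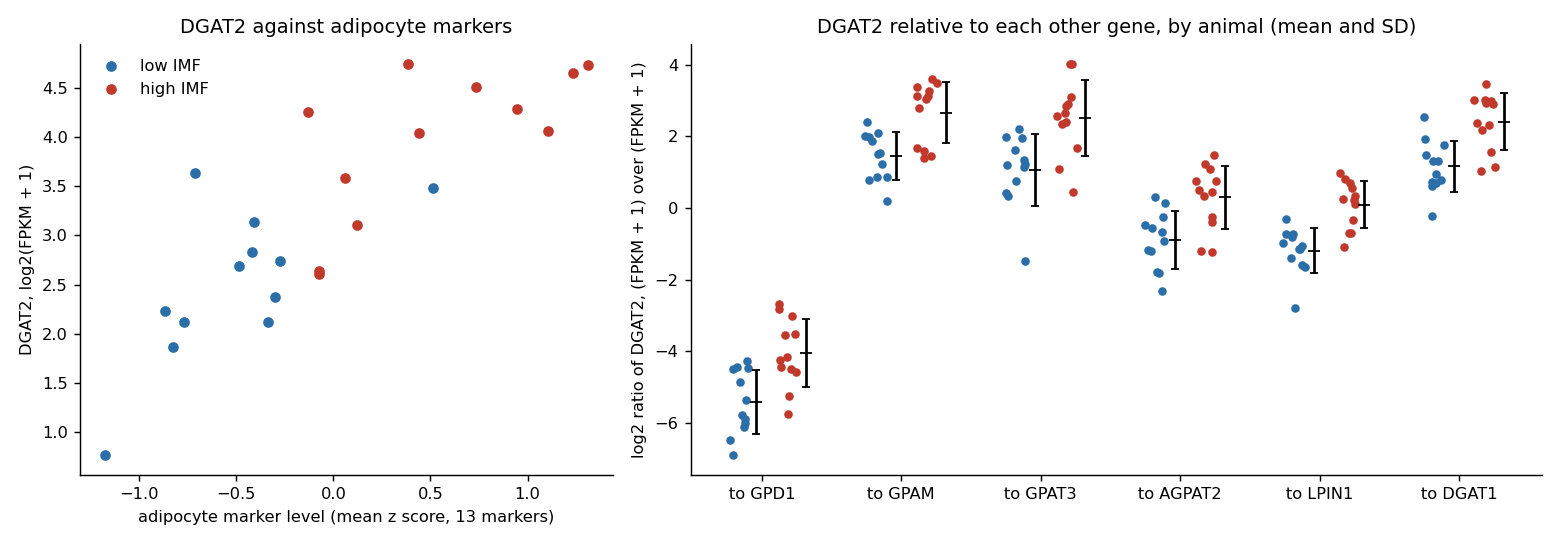
Left, DGAT2 in log2(FPKM + 1) against the adipocyte marker level (mean z score of 13 markers), 1 point per animal; right, log2 ratios of DGAT2 to each other gene by animal, with mean and SD of 12 animals. DGAT2 increases with the marker level inside each group, and all 6 ratios have the higher mean in high IMF, such as 2.41 against 1.16 for DGAT1.

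The leading 4 digits of the animal identifiers take 2 values, here called set A (the smaller) and set B, with 6 pigs of each IMF group in both sets. The sources used here do not explain these digits. All 3 pairs of animals that share their first 9 identifier digits are in set A. The tests within set A count all its animals as independent. DGAT2 was 12.9 ± 8.39 against 4.58 ± 1.99 FPKM in set A (log2 difference 1.16, exact permutation p = 0.0281, n = 6 each). In set B it was 19.4 ± 5.55 against 6.17 ± 4.01 FPKM (log2 difference 1.71, exact permutation p = 0.00433, n = 6 each). In limma over all genes neither set alone passed (adjusted p = 0.546 in set A and 0.772 in set B). The difference between the sets did not pass (limma interaction 0.55, SE 0.582, adjusted p = 0.998). Within set B the 6 ratios of DGAT2 passed (exact permutation, adjusted p = 0.0303 each). Within set A they had the same sign, from 0.72 to 0.95, and did not pass (exact permutation, adjusted p from 0.443 to 0.523).

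For the other genes no interaction passed either (limma adjusted p = 0.998 each). GPAM and AGPAT2 had the same sign in both sets, with log2 differences of 0.28 and 0.31 in set A and 0.15 and 0.19 in set B. GPAT3 was 2.24 ± 1.28 in high against 1.34 ± 0.890 FPKM in low IMF animals of set A, and 1.69 ± 1.12 against 2.46 ± 0.852 FPKM in set B (limma interaction -0.90, unadjusted p = 0.0717). LPIN1 was 14.1 ± 5.59 against 9.75 ± 2.14 FPKM in set A and 14.1 ± 4.32 against 15.3 ± 5.26 FPKM in set B (limma interaction -0.52). GPD1 was 311 ± 82.3 against 271 ± 83.6 FPKM in set A and 213 ± 55.0 against 227 ± 51.0 FPKM in set B. For none of GPAT3, LPIN1 and GPD1 did the difference within a set pass an exact permutation test (p from 0.145 to 0.686, n = 6 each). DGAT1 had an exact permutation p = 0.0238 in set A, where 5 of 6 high IMF animals lay above all 6 low IMF animals, and 0.255 in set B.

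Of the chain, 3 members (DGAT2, LPIN1 and GPD1) are read through more than 1 locus or transcript. The table lists DGAT2 a second time, as an isoform added by the assembly on an unplaced scaffold with 7 exons, 2.34 ± 1.28 FPKM in high and 0.863 ± 0.983 FPKM in low IMF. Its log2 fold change was 0.86 (SE 0.237, limma adjusted p = 0.367 over 21405 transcripts, of which 0.0187% were called). It held 12.9% of the DGAT2 signal on average and 5.94% to 37.3% by animal, and it followed the chromosome 9 locus across the 24 animals with group means taken away (Pearson r = 0.78, permutation p = 1.0e-05, the smallest that 100000 resamples can give; Spearman rho = 0.84, permutation p = 2.0e-05). If the 2 loci are near-identical copies, reads were divided between them by the authors' assembly. Summed over both, DGAT2 had a log2 fold change of 1.45 (limma adjusted p = 0.0793). The chromosome 9 locus lies at 10032163 to 10066082 on the plus strand, with 8 exons in 1 reference transcript, ENSSSCT00000049180.

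LPIN1, on the minus strand of chromosome 3, has 3 listed transcripts. ENSSSCT00000030171 spans 124940734 to 125021045 with 21 exons, while ENSSSCT00000024626 (124942052 to 125074509, 21 exons) and the isoform added by the assembly, MSTRG.9556.2 (124940560 to 125074221, 22 exons), begin farther upstream, at the larger coordinate. ENSSSCT00000030171 held the largest share in 16 animals, 8 of each group. ENSSSCT00000024626 led in 4 animals, high IMF animals 1, 3 and 7 and low IMF animal 11, at 9.87 to 15.8 FPKM, against at most 5.55 FPKM in the other 20. MSTRG.9556.2 led in the remaining 4, high IMF animal 4 and low IMF animals 3, 6 and 8, and in exactly these 4 ENSSSCT00000030171 is listed at 0. The summed level did not mark these animals out, at 7.49 to 14.4 FPKM in those listed at 0. Values of isoforms depend on how the assembly divided shared reads, so a transcript listed at 0 can be a failed estimate.

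The share of ENSSSCT00000030171 in LPIN1 was 51.3 ± 25.4% in high and 44.8 ± 29.9% in low IMF, a difference of 6.48 percentage points (permutation p = 0.572, adjusted p = 0.607 over 2 genes). No LPIN1 transcript passed in limma, where 5.25% of all transcripts were higher and 1.09% lower at an unadjusted p under 0.05: the log2 fold changes were 0.42 (SE 0.485, adjusted p = 0.917) for ENSSSCT00000030171, 0.50 (SE 0.356, adjusted p = 0.859) for ENSSSCT00000024626 and -0.60 (SE 0.400, adjusted p = 0.848) for MSTRG.9556.2. With reference transcripts alone, which leaves the last one out, the LPIN1 log2 fold change was 0.50 in place of 0.16 (limma adjusted p = 0.741).

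**Figure D4:**
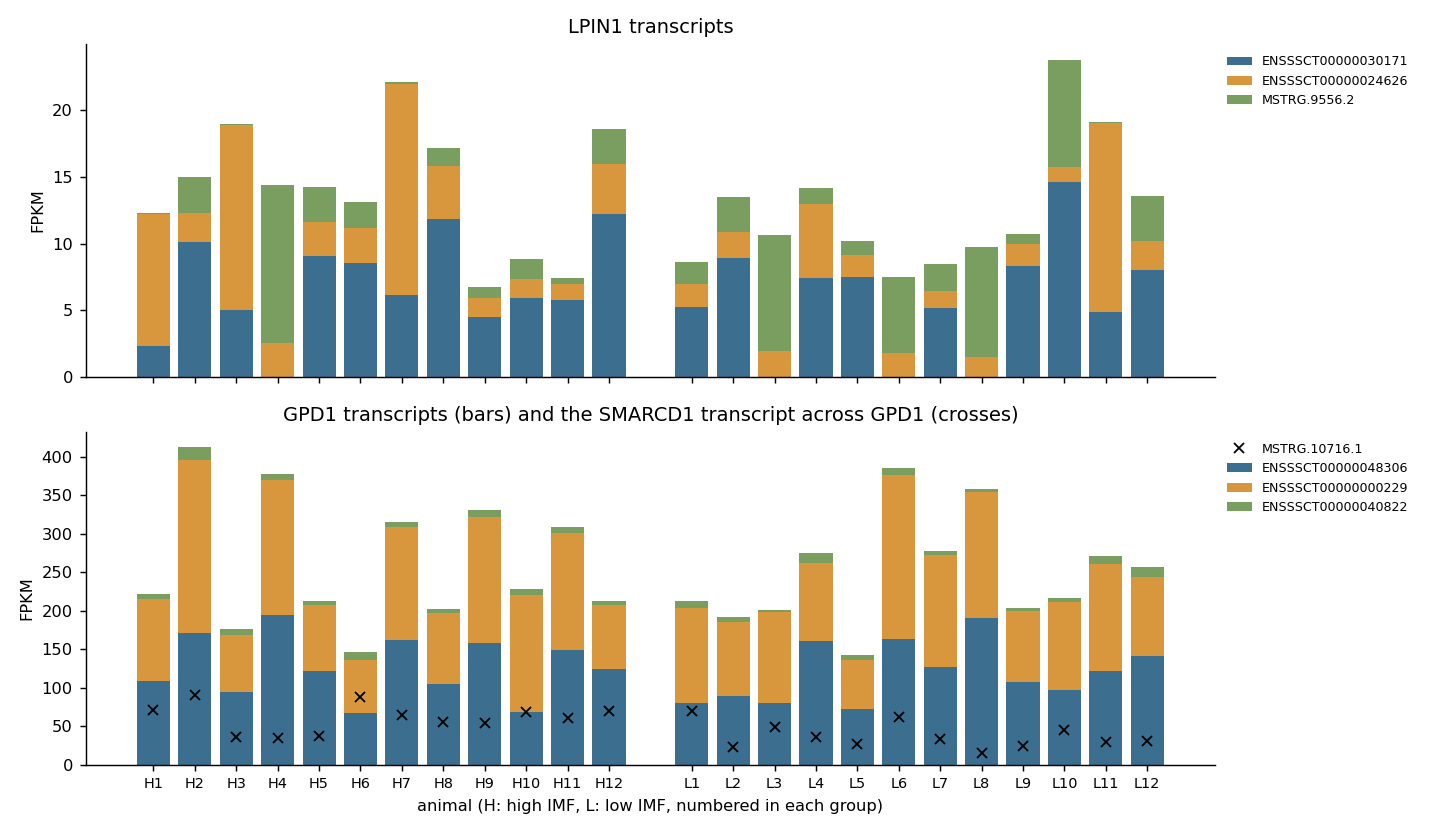
Stacked bars give the FPKM of the listed LPIN1 transcripts (top) and GPD1 transcripts (bottom) in each animal, high IMF on the left and low IMF on the right; crosses are the SMARCD1 transcript that runs across GPD1. LPIN1 is made up of different transcripts in different animals of both groups, while GPD1 is divided almost evenly between 2 transcripts, and the crosses run from 34.8 to 91.0 FPKM in high and from 15.2 to 69.4 FPKM in low IMF.

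GPD1, on the plus strand of chromosome 5, also has 3 reference transcripts. ENSSSCT00000048306 (16007448 to 16021674, 11 exons) was 127 ± 40.6 against 119 ± 38.2 FPKM in high and low IMF, and ENSSSCT00000000229 (16008485 to 16014419, 7 exons) was 127 ± 48.9 against 123 ± 38.9 FPKM. The third, ENSSSCT00000040822, was 8.18 ± 3.07 against 7.17 ± 3.14 FPKM. ENSSSCT00000048306 begins before the end of the SMARCD1 reference transcript (16007793) and runs past the end of the other GPD1 transcripts. Its span there includes MSTRG.10716.10, an assembled transcript without a symbol (16015142 to 16021676, 7.56 ± 4.63 against 6.35 ± 3.13 FPKM). How reads were divided between these transcripts was not tested. The share of ENSSSCT00000000229 was 47.8 ± 7.32% in high IMF against 49.3 ± 6.78% in low (permutation p = 0.607). The limma log2 fold changes were 0.085 (adjusted p = 0.966) for ENSSSCT00000048306, 0.0099 (0.996) for ENSSSCT00000000229 and 0.21 (0.901) for ENSSSCT00000040822, and the first and second turned negative with TMM scaling (-0.023 and -0.098).

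A further transcript runs across GPD1 under another symbol. Whether it is a real read-through RNA or a product of the assembly cannot be told from the table, so its FPKM cannot be read as the level of either gene. MSTRG.10716.1, listed as SMARCD1, begins at the start of that upstream neighbour (15992459), has 21 exons and ends at 16014419, the last base of ENSSSCT00000000229. It was 60.8 ± 18.6 FPKM in high and 37.1 ± 16.4 FPKM in low IMF, with medians of 62.2 and 32.4 FPKM, while the reference transcript of SMARCD1 was at most 1.45 FPKM in any animal. Its log2 fold change was 0.75 (SE 0.214, limma unadjusted p = 0.00176, adjusted p = 0.417), and it did not follow GPD1 between animals (Pearson r = 0.0041, permutation p = 0.984; Spearman rho = 0.097, permutation p = 0.656; 24 animals, group means taken away). An isoform without a symbol in the GPD1 span, MSTRG.10716.7, was 24.5 ± 6.95 against 27.7 ± 13.4 FPKM. Summed with that isoform, GPD1 had a log2 fold change of 0.034, and with both transcripts 0.14 (limma adjusted p = 0.827).

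The remaining members have 1 reference transcript each. DGAT1 lies on chromosome 4 at 452861 to 466871 with 17 exons, GPAM on chromosome 14 at 122542205 to 122577239 with 20 exons, GPAT3 on chromosome 8 at 134912501 to 134977423 with 13 exons and AGPAT2 on an unplaced scaffold with 6 exons. In the authors' deposited table the fold of low over high IMF was 0.427 for DGAT2 on chromosome 9 (p-value 0.000768, and 0.647, 0.398 and 0.209 for the 3 kinds of q-value), 0.57 for its scaffold copy (p-value 0.00555) and 0.907 for DGAT1 (p-value 0.0343). For AGPAT2, GPAM and GPAT3 the authors' deposited table gives folds of 0.846, 0.949 and 1.025. For MSTRG.10716.1 the authors' deposited table gives 0.572 (p-value 0.00307). None of the 11 member transcripts has a q-value under 0.05 of any kind in the authors' deposited table.

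Members were also compared with each other across the 24 animals, on log2(FPKM + 1) with group means taken away, 21 pairs in all. Of these, 3 passed. DGAT2 and LPIN1 had Pearson r = 0.56 (permutation p = 0.0056, adjusted p = 0.0392) and Spearman rho = 0.60 (adjusted p = 0.0414), with r = 0.54 within the 12 high and 0.58 within the 12 low IMF animals. Without high IMF animal 10 and low IMF animal 3, the 2 farthest from the median of DGAT2, r was 0.57. GPAM and LPIN1 had r = 0.57 (permutation p = 0.00497, adjusted p = 0.0392) and rho = 0.56 (adjusted p = 0.0414), with 0.59 in high and 0.54 in low IMF, and r = 0.46 without high IMF animals 7 and 12. DGAT1 and AGPAT2 had r = 0.57 (permutation p = 0.00423, adjusted p = 0.0392) and rho = 0.54 (adjusted p = 0.0414), with 0.46 in high and 0.67 in low IMF, and r = 0.51 without low IMF animals 3 and 10. With TMM scaling none of these 3 passed (r = 0.48, 0.45 and 0.48 in that order, adjusted permutation p = 0.124, 0.162 and 0.124). AGPAT2 and LPIN1, at r = -0.39 as deposited (adjusted permutation p = 0.287), passed with that scaling alone (r = -0.74, adjusted permutation p = 0.00126). AGPAT2 and GPD1 passed by rank alone (rho = 0.55, adjusted permutation p = 0.0414; r = 0.47, adjusted p = 0.130). DGAT2 and DGAT1 had r = 0.22 (adjusted permutation p = 0.720) and rho = 0.083.

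The genes most like a member were taken as the 3 of highest Pearson r over the 24 animals with group means taken away, among 9621 genes with a symbol and a mean of at least 1 FPKM, as a description. For DGAT2 these were THRSP (r = 0.85), a lipogenic regulator, ALDOC (0.84), an aldolase, and FASN (0.82), fatty acid synthase. THRSP was 3.23 ± 1.89 against 1.07 ± 1.12 FPKM, ALDOC 4.41 ± 1.73 against 2.02 ± 1.19 FPKM and FASN 16.2 ± 9.60 against 8.05 ± 5.46 FPKM in high and low IMF. For DGAT1 they were CHMP5 (0.87), MZT1 (0.83) and TTLL12 (0.83), and for LPIN1 GFM2 (0.88), ZDHHC21 (0.87) and WASL (0.86). For GPAM they were CARNMT1 (0.86), SREK1IP1 (0.86) and EPC1 (0.86), and for AGPAT2 CD320 (0.80), TIMM8B (0.80) and RNPEP (0.78). GPAT3, with PACSIN2 (0.71), FBXL5 (0.65) and TRIM41 (0.64), and GPD1, with LZTS3 (0.77), ABHD14A (0.70) and DCXR (0.67), had the least close matches. All these r are from FPKM as deposited, and none after TMM scaling is given here.

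Most markers of fat cells differed in the direction of DGAT2, but not all. Of 15 adipocyte markers, 13 were in the table and 12 were tested. LEP and TUSC5 passed, both higher, where 0.0425% of all genes were called higher. A log2 fold change above 0 was found in 11 of the 12 (73.4% of all genes), with a median of 0.73 against 0.077 for all genes. With TMM scaling 11 were above 0 (49.8% of all genes), with a median of 0.66 against -0.00086. The summed level of the 13 was 159 to 324 FPKM in high and 106 to 239 FPKM in low IMF. Of the defining markers, ADIPOQ was above 0 in every animal, at 27.1 ± 12 against 10.3 ± 5.72 FPKM, and ADIG was listed at 0 in 4. PLIN1 had a log2 fold change below 0 (-0.088, limma adjusted p = 0.979), at 8.75 ± 8.09 against 7.5 ± 5.01 FPKM. PLIN4 and CFD differed by little (0.19 and 0.17, limma adjusted p = 0.924 and 0.822). The marker level, an average of z scores of log2(FPKM + 1) of the 13, correlated with DGAT2 across the 24 animals with group means taken away (Pearson r = 0.67, permutation p = 0.00086, adjusted p = 0.00602 over 7 genes; Spearman rho = 0.65, adjusted p = 0.00686). The r was 0.69 within high and 0.66 within low IMF, and 0.61 without high IMF animal 5 and low IMF animal 10. No run with 1 animal per shared 9 identifier digits was made for this correlation. THRSP, the gene closest to DGAT2 by correlation above, is 1 of the 13 markers, and no level without it is given here. None of the other 6 members passed against that level: r was 0.43 for DGAT1 (adjusted permutation p = 0.121), 0.40 for LPIN1 (0.147), 0.060 for GPAM (0.925), 0.0050 for AGPAT2 (0.982), -0.21 for GPAT3 (0.498) and -0.21 for GPD1 (0.498). Within groups, DGAT1 had r = 0.096 in high and 0.80 in low IMF (unadjusted permutation p = 0.764 and 0.00245). LPIN1 had 0.27 and 0.59 (unadjusted permutation p = 0.399 and 0.0456). The part of fat cell number in the DGAT2 difference was not tested, and in whole muscle more cells of a type and more RNA per cell cannot be told apart.

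For other cells, the 14 fibre markers were all in the table. They summed 19720 to 48375 FPKM in high and 21717 to 57754 FPKM in low IMF, and none passed. Of the 14, 6 were above 0 (73.4% of all genes), with a median of -0.074 against 0.077 for all genes. With TMM scaling 3 were above 0 (49.8% of all genes), with a median of -0.15. At an unadjusted limma p under 0.05, 1 was higher (RYR1) and 2 were lower (TTN and MYLPF), against 6.79% and 0.893% of all genes. RYR1 was listed at 0 in 3 animals and reached 297 FPKM in another. MB, at 0.408 ± 0.317 against 0.628 ± 0.693 FPKM, was listed at 0 in 4. How well such rows measure fibre content was not tested. Of 6 endothelial, 6 fibroblast, 4 macrophage and 5 smooth muscle markers tested, none passed, with medians of 0.23, 0.033, 0.11 and 0.076. Of 5 Schwann cell markers 2 were in the table and tested, and 1 of them was lower past the threshold. Both log2 fold changes were below 0, their median was -1.03 (-1.12 with TMM scaling), and the summed level was 4.78 to 30.9 FPKM in high and 12.1 to 52.8 FPKM in low IMF. The part of these cells in the differences of the members was not tested. Of 3 liver markers, 1 was in the table, APOA1, at 2.96 ± 2.05 against 3.82 ± 1.71 FPKM.

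The other genes around the chain had, as a set, a median log2 fold change near that of all genes. Of 45 listed genes of acylation, phosphatidate turnover, glycerol supply, droplet assembly and lipolysis, 32 were in the table and 30 were tested. None passed, and 5 were higher and 0 lower at an unadjusted limma p under 0.05 (6.79% and 0.893% of all genes). Of the 30, 22 were above 0 (73.4% of all genes). Their median was 0.076 against 0.077 for all genes, and -0.0047 against -0.00086 with TMM scaling, when 15 were above 0 (49.8% of all genes). AGPAT1, which does the same step as AGPAT2, was 12.3 ± 2.40 against 9.0 ± 2.43 FPKM (log2 fold change 0.43, SE 0.122, limma adjusted p = 0.269), with each of the 12 high values above the low IMF median. LIPE, the hormone-sensitive lipase, was 13.9 ± 5.69 against 8.03 ± 6.59 FPKM (0.85, adjusted p = 0.288), and ABHD5, which activates the lipase of the first step of lipolysis, was 4.61 ± 1.44 against 3.01 ± 1.31 FPKM (0.50, adjusted p = 0.419).

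AQP3, a glycerol channel, was 1.24 ± 0.289 against 0.857 ± 0.360 FPKM (0.28 on the log2 scale, limma adjusted p = 0.480), and ACSL5, which activates fatty acids, was 1.78 ± 0.312 against 1.40 ± 0.487 FPKM (0.23, adjusted p = 0.608). The next by p were FITM2, a droplet protein (0.38, adjusted p = 0.676), GPD1L, a relative of GPD1 (0.24, adjusted p = 0.685), and ACSL1, the most abundant acyl-CoA synthetase listed, at 48.4 ± 16.9 against 39.0 ± 13.9 FPKM (0.29, adjusted p = 0.699). Relatives of the members with a larger p included GPAT4, at 18.9 ± 8.66 against 18.5 ± 7.65 FPKM and so the most abundant glycerol-3-phosphate acyltransferase in the table, and LPIN3 and LPIN2, at 1.5 ± 0.710 against 1.46 ± 0.512 and 0.507 ± 0.309 against 0.698 ± 0.540 FPKM. PNPLA3, a lipase and acyltransferase of droplets named after its values were seen, did not reach the filter of a mean of 0.5 FPKM. It was 0.649 ± 0.284 against 0.234 ± 0.125 FPKM, with each of the 12 high values above the low IMF median, and without a filter its log2 fold change was 0.41 (limma adjusted p = 0.0579).

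The libraries were of similar depth. The table states none, and the step of 1 base of coverage in low values gave between 32.9 and 40.8 M reads (M, mega) for each library, 36.2 ± 2.43 in high and 36.9 ± 1.28 in low IMF. On that scale DGAT2 rested on the equivalent of 37 to 1423 reads per animal, GPAM on 44 to 260, GPAT3 on 14 to 362, DGAT1 on 220 to 566 and GPD1 on at least 19792. Low IMF animal 10 and high IMF animal 7 stood apart, with 18.5% and 20.2% of FPKM in the 10 most abundant genes against at least 24.7% in the other 22. Without both, DGAT2 had a log2 fold change of 1.45 and passed (limma adjusted p = 0.0457), and its 6 ratios passed as well (permutation, adjusted p from 0.00756 to 0.0163). No member other than DGAT2 passed in any of the fits made with animals left out.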

How the data were processed

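Polyadenylated RNA of 24 muscle samples was sequenced as paired reads of 150 bases, per the labels' protocols. HISAT2 2.0.5, StringTie 1.3.3 and the build Sscrofa11.1 are named in the submitters' processing notes, without their roles. The authors deposited 1 table of 22154 transcripts (12404 reference transcripts, 7985 isoforms and 1765 others added by the assembly) with an FPKM value per animal, a fold, a p-value and 3 q-values. No header names the unit, and FPKM is read from the sums of 351119 to 415572 per library and from how the values step: with a step of 1 base of coverage, 72.9% to 83.4% of the lowest values came out whole. The deposited fold is low over high IMF, since its direction matched the values in 328 of 328 transcripts with a p-value under 0.01. Among the symbols, 34 had turned into dates.

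Transcripts were summed per symbol and chromosome, and the 11757 genes that averaged 0.5 FPKM or more were fitted as log2(FPKM + 1) with limma 3.58.1 (trend and robust moderation, group alone) and Benjamini-Hochberg adjustment over all of them. TMM and upper-quartile factors were computed on the FPKM table by their standard formulas. Other p-values are 2-sided permutation tests with 100000 resamples, exact within the identifier sets. The scripts were tested on simulated data. Named genes outside the 7 were the 8 of smallest p in the list around the chain and the 3 closest by correlation, besides markers and relatives of the members. The members and lists were chosen with earlier results of these data known. The labels do not say that the animals are unrelated.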

Additional observations from a re-analysis of the deposited data

How the results depend on the processing

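DGAT2 kept its sign in every alternative run. It passed with array weights (log2 fold change 1.52) and, chosen after seeing the data, without both libraries that stood apart (1.45). Leaving out 1 animal at a time gave 1.28 to 1.56 and adjusted p from 0.0228 to 0.159. GPAT3 changed sign with array weights (0.018), with a Y-linked level as a term (0.046), with 1 animal per shared 9 identifier digits (0.018) and within set A (0.44), and ran from -0.11 to 0.098 with 1 animal left out. LPIN1 was -0.10 within set B. GPD1 was -0.057 with TMM scaling, -0.068 with upper-quartile scaling and -0.093 within set B, and ran from -0.012 to 0.13 with 1 animal left out. Its transcript ENSSSCT00000048306 was -0.023 and -0.024 under the 2 scalings. ENSSSCT00000000229 was -0.098 and -0.099 under them, -0.18 within set B, -0.022 without both of those libraries, and -0.073 to 0.088 with 1 animal left out. ENSSSCT00000040822 was -0.032 within set B. In all, 247 of 266 member gene values and 280 of 298 transcript values kept their sign, and the cause of the others was not tested.

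Over all genes, 5 were called higher and 1 lower. Higher calls numbered 3 at a mean of at least 5 FPKM, 23 with array weights, 18 without both of those libraries, 0 within set A and 0 within set B, and 3 (without high IMF animal 5) to 29 (without low IMF animal 10) with 1 animal left out. Lower calls numbered 2 with TMM or upper-quartile scaling, 3 with array weights, 3 without those 2 animals, 0 to 2 with 1 animal left out, and 0 with a pseudocount of 0.1, the first 4 identifier digits or a Y-linked level as a term, 1 animal per 9 digits or either set. All 192 values of the DGAT2 ratios kept their sign, TMM scaling, upper-quartile scaling and no pseudocount included, which were chosen after seeing the data. A run with 1 animal per 9 digits was not among them. Within set A 0 pairs passed, against 6 within set B with as many animals (the cause was not tested), and the GPD1 transcript share difference was 0.236 percentage points. Set A holds all the animals that share 9 identifier digits, and set B holds none. The 3 correlations between members did not pass with a pseudocount of 0.1 (adjusted permutation p = 0.0592 each).

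No paired analysis was possible because the labels give no replicate numbers shared by the groups. The lowest values of GPAT3, DGAT2 and GPAM rest on the equivalent of 14, 37 and 44 reads, and whether depth limits their comparison was not tested.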
